A study of Mus musculus with 12 samples.

Results

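Glycolysis and pyruvate metabolism were examined in lung ILC2s through a list of 32 genes: glucose transporters, glycolytic enzymes and their PFK-2 regulators, lactate dehydrogenases and lactate transporters, pyruvate dehydrogenase (PDH) subunits and kinases, and *Hif1a*. The genes were chosen by name for their place in the pathway, with earlier results of these data known. All 32 were found among the 24346 gene symbols measured. Of these, 30 passed the filter for testing, a mean of at least 0.5 FPKM (a read count scaled to gene length and to library size) over the 12 libraries, as did 11395 genes in all. *Hk3* and *Pfkfb4* did not pass it, and *Eno2* and *Aldoc* passed it only through the IL-33 libraries and so had to differ in mean level between treatments.

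Glycolysis splits glucose into pyruvate, which is either reduced to lactate and exported or carried into mitochondria, where the PDH complex turns it into acetyl-CoA. PDH kinases switch that complex off by phosphorylation, and the transcription factor HIF-1α raises transcription of many glycolytic genes and of *Pdk1* when oxygen is low. In ILC2s, innate lymphocytes that release type 2 cytokines, fuel use is known to shift with activation, for which the alarmin IL-33 is a main trigger.

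RNA was sequenced from ILC2s sorted as CD45+ Lin- Thy1.2+ ST2+ cells from lungs of C57BL/6 mice (C57BL/6J by the methods of the study, which also give an age of 7 to 12 wk). WT mice and *Sema6d*-/- mice (6DKO in the labels), whose genotype is of the germline and so shared by all cells and not set in ILC2s alone, received IL-33 or its PBS vehicle intranasally for 3 days, with 3 libraries in each of the 4 groups. The labels give 50 ng of IL-33, and the methods of the study give a higher dose. Each group has n = 3, but whether cells of several mice were pooled is not stated, so p-values measure the spread between these samples.

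*Sema6d*, the targeted gene, was still read in every library. Libraries of the PBS groups held 27.6, 46.1 and 37.5 FPKM in WT and 29.0, 22.9 and 19.8 in *Sema6d*-/- ILC2s. Those of the IL-33 groups held 19.7, 35.5 and 28.7 FPKM in WT and 15.4, 13.6 and 13.8 in *Sema6d*-/- ILC2s. Thus the *Sema6d*-/- values lay below all WT values under IL-33, and the ranges overlapped under PBS, so this transcript count alone does not separate the genotypes. The deleted stretch of the gene is not given in the sources used here.

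All 9 ILC2 markers were present in every library, with summed levels from 1930 to 3026 FPKM, *Gata3* being the most abundant in each PBS library and *Klrg1* in each IL-33 library. In the limma comparison of treatments averaged over genotypes, 3 of the 9 passed, beside 8.82% of all genes (1 higher, beside 5.75%, and 2 lower, beside 3.07%). *Klrg1* rose, from 141.3 to 498.4 FPKM under PBS and from 540.6 to 752.2 under IL-33, without overlap. *Il2ra* fell, from 96.2 to 131.9 FPKM under PBS and from 18.98 to 47.5 under IL-33, also without overlap. *Icos* fell as well, with overlapping ranges of 268.4 to 518.4 FPKM under PBS and 240.9 to 276.9 under IL-33. Of the T cell list, *Cd4* was listed at 0 in all 12 libraries and *Cd3e* reached at most 9.81 FPKM, while *Cd3g* lay between 189.7 and 479.8 FPKM. The *Sema6d*-/- PBS replicate 2 library stood apart from the rest. It held *Ncr1* at 58.9 FPKM, *Prf1* at 36.3 and *Eomes* at 5.47, against at most 2.61, 6.99 and 0.0316 FPKM elsewhere, and the 4 NK markers summed to 103.7 FPKM there and to at most 6.99 in any other library. Macrophage markers, mostly *Lyz2*, summed to 131.3 FPKM in that library and to at most 59.97 elsewhere. *Krt8* was at 19.5 FPKM there and 0 elsewhere, *Scgb1a1* at 22.4 against at most 11.4, and *Cldn5* at 12.7 against at most 1.01. Other members of these epithelial and endothelial lists were less distinct. *Epcam* at 22.25 FPKM and *Pecam1* at 10.19 lay within the range of the other libraries. *Sftpc* was at 0 there, and *Cdh5* at 0.226 against at most 0.0438. Mesenchymal markers summed to 4.51 FPKM there and to at most 0.540 elsewhere. Results that change without it are given both ways.

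Signs of library quality moved with treatment. Of the 3617 genes whose mean fell between 5 and 20 FPKM, PBS libraries each lacked 169 to 641 and IL-33 libraries 25 to 50. Depth relative to WT IL-33 replicate 3, estimated from weakly expressed genes since FPKM carries no read totals, was 0.739 to 0.998 in PBS and 0.968 to 1.39 in IL-33 libraries. Of the 32 genes themselves, PBS libraries each lacked 3 to 7 and IL-33 libraries 0 to 2. Zeros below are quoted as the table has them, not as proof of silence. The part of these differences in the results on treatment was not tested.

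Some markers of other cells and of proliferation also differed between treatments, while the summed epithelial, B cell and macrophage lists overlapped. In the limma comparison of IL-33 with PBS averaged over genotypes, 5.75% of all genes were called higher and 3.07% lower. The marker counts that follow stand beside these shares. Called higher were 4 of 8 proliferation genes, all tested. Of these, *Mki67* and *Ccnb1* passed the filter only through the IL-33 libraries, which leaves *Top2a* and *Rrm2*. The summed list, led by *Pcna*, was 130.0, 136.6 and 142.8 FPKM in WT PBS, 103.5, 92.5 and 39.96 in *Sema6d*-/- PBS, 209.2, 172.2 and 236.5 in WT IL-33, and 171.1, 151.3 and 155.4 in *Sema6d*-/- IL-33 libraries, with no overlap between treatments. Of 4 mast cell and basophil markers only *Cpa3*, the most abundant, passed the filter, and it fell (1 of 1 tested), with *Mcpt8* listed at 0 throughout. This list summed to 63.2, 88.6 and 73.3 FPKM in WT PBS, 42.9, 89.3 and 50.05 in *Sema6d*-/- PBS, 29.9, 31.99 and 17.8 in WT IL-33, and 17.9, 22.8 and 40.1 in *Sema6d*-/- IL-33 libraries. Here, too, the treatments did not overlap. The 4 erythroid markers, of which *Hba-a1* fell (1 of 2 tested), summed to 16.05, 45.4 and 24.4 FPKM in WT PBS, 12.8, 32.01 and 40.04 in *Sema6d*-/- PBS, 4.51, 9.76 and 5.51 in WT IL-33, and 5.67, 8.95 and 3.80 in *Sema6d*-/- IL-33 libraries. The other tested marker of this list, *Hba-a2*, was at 0.0626 to 0.710 FPKM in 5 PBS libraries and 37.3 in *Sema6d*-/- PBS replicate 3, and at 0.0346 to 5.38 under IL-33. *Epcam* fell (1 of 4 epithelial markers, all tested), and that list summed to 38.1, 33.8 and 16.4 FPKM in WT PBS, 53.97, 64.2 and 41.9 in *Sema6d*-/- PBS, 12.3, 15.4 and 9.73 in WT IL-33, and 19.8, 0 and 98.5 in *Sema6d*-/- IL-33 libraries. The epithelial sums thus overlapped between treatments. *Sftpc*, at 0 in all 6 PBS libraries, reached 97.2 FPKM in the last of these libraries and at most 8.56 in the others. *Cd79b* rose (1 of 2 tested among 4 B cell markers, *Ms4a1* being at 0 throughout), the list summing to 0, 0.139 and 5.05 FPKM in WT PBS, 0, 0 and 8.90 in *Sema6d*-/- PBS, 26.9, 14.5 and 11.97 in WT IL-33, and 3.49, 18.4 and 5.91 in *Sema6d*-/- IL-33 libraries. Of 8 macrophage markers 4 were tested and 1 was called higher, *Cd68*, which passed the filter only through the IL-33 libraries, as *Marco* and *Mrc1* did only through the PBS libraries. That list summed to 0.195, 0.882 and 17.06 FPKM in WT PBS, 0.610, 131.3 and 10.5 in *Sema6d*-/- PBS, 1.99, 3.96 and 0.815 in WT IL-33, and 10.3, 26.3 and 59.97 in *Sema6d*-/- IL-33 libraries. These values stand beside every result on treatment below, and their part in it was not tested. In bulk RNA, fewer cells of a type and less RNA per cell cannot be told apart.

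The 32 genes spanned a wide range of levels. As means over the 12 libraries, 5 reached 200 FPKM or more (*Ldha*, *Aldoa*, *Gapdh*, *Pkm* and *Eno1*), 7 lay between 50 and 200, 8 between 10 and 50, 10 between 0.5 and 10, and 2 below 0.5. *Ldha*, at a mean of 2284 FPKM, ranked 56 among the 11395 genes tested. Together the 32 genes held 0.644% to 0.772% of all FPKM in PBS and 0.649% to 0.749% in IL-33 libraries, and *Ldha* alone gave 39.95% to 46.6% of their sum. Their mean log2(FPKM + 1) per library was 4.27 to 4.86 under PBS and 4.68 to 4.87 under IL-33, so the treatments overlapped by this measure.

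**Figure D1:**
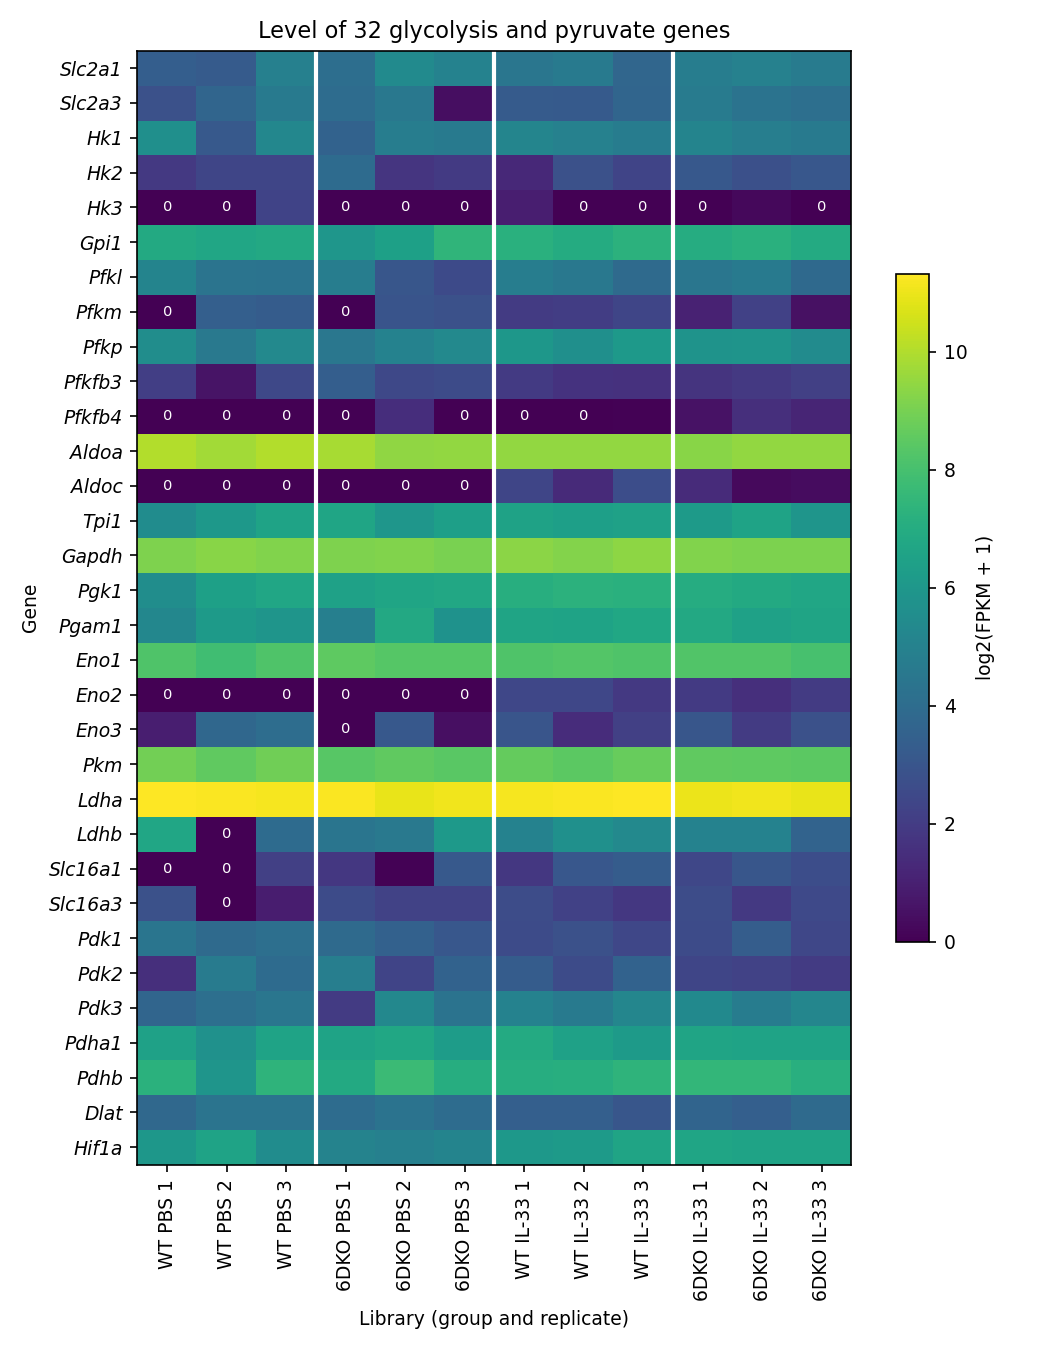
Level of each of the 32 genes (vertical) in each of the 12 libraries (horizontal, by group and replicate), coloured by log2(FPKM + 1), with a 0 written where a gene was listed at 0. *Ldha* is the brightest in every library, and *Eno2* and *Aldoc* are at 0 in all 6 PBS libraries.

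To ask which of these genes IL-33 changes, the treatments were compared with limma on log2(FPKM + 1), with Benjamini-Hochberg adjustment over all 11395 genes and a threshold of 0.05. Averaged over genotypes, 4 of the 30 tested genes passed, beside 8.82% of all genes (1005 genes). The calls of *Eno2* and *Aldoc* carry no weight in this count, because the filter let these genes in only through the IL-33 libraries. Counting only genes that averaged 0.5 FPKM or more in both treatments, 2 of 28 passed, beside 7.59% of 10261 genes. *Hif1a* rose, as did *Eno2* and *Aldoc* (3 of 30, beside 5.75% of all genes, or 1 of 28, beside 4.33%), and *Pdk1* fell (1 of 30, beside 3.07%, or 1 of 28, beside 3.26%). At an unadjusted limma p under 0.05 there were 11, beside 22.7% of all genes, or 9 of 28 without *Eno2* and *Aldoc*, beside 21%. For *Eno2* and *Aldoc* alone all 6 IL-33 libraries lay on the same side of all 6 PBS libraries (2 of 30, beside 6.46% of all genes, with 2 higher, beside 4.12%, and 0 lower, beside 2.33%), and without these genes it was 0 of 28, beside 5.48%. *Pgam1* and *Pdk3* were among the genes that overlapped only through *Sema6d*-/- PBS replicate 2, and the share over all genes without that library was not counted. The median log2 fold change of the 30 genes was 0.29, and 0.22 without *Eno2* and *Aldoc*, against 0.16 over all genes tested, so the whole table lay to the positive side. With quantile normalization the median of all genes was −0.03 and that of the 30 genes 0.19, but with a pseudocount of 0.1 the order turned, at 0.35 for all genes and 0.31 for the 30. For genes with low values, the added 1 makes these folds too small.

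**Figure D2:**
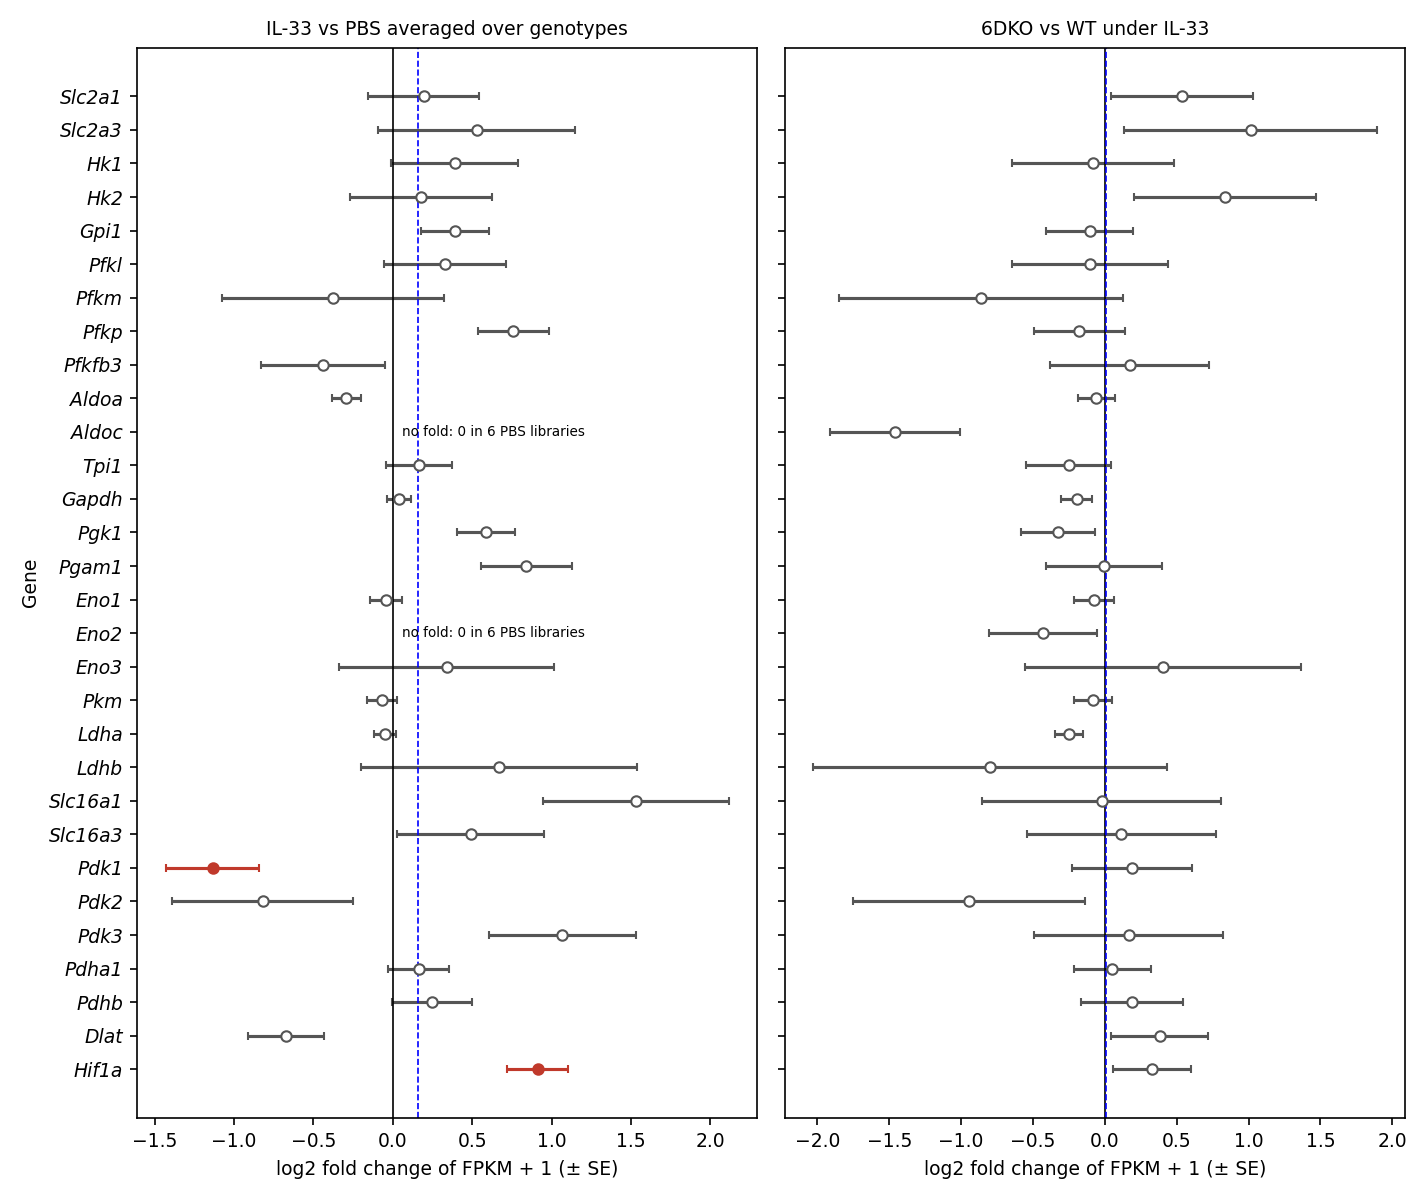
Log2 fold change of FPKM + 1 with its standard error (horizontal) for the 30 tested genes (vertical), for IL-33 against PBS averaged over genotypes (left) and for *Sema6d*-/- against WT under IL-33 (right); filled red points have a limma adjusted p under 0.05, and the dashed line is the median of all genes tested. On the left *Hif1a* (0.91) and *Pdk1* (−1.14) are filled and no fold is drawn for *Eno2* and *Aldoc*, and on the right no point is filled.

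Glucose enters through the transporters GLUT1 and GLUT3. *Slc2a1* (GLUT1) ranged from 8.55 to 41.2 FPKM under PBS and from 12.2 to 30.2 under IL-33. *Slc2a3* (GLUT3) was 6.08, 11.8 and 23.5 FPKM in WT PBS and 14.97, 22.5 and 0.359 in *Sema6d*-/- PBS libraries. IL-33 libraries held 8.41, 8.23 and 11.8 FPKM in WT and 25.5, 18.9 and 16.4 in *Sema6d*-/- ILC2s. The widest gap lay within *Sema6d*-/- PBS, and under IL-33 the *Sema6d*-/- values of both transporters were above all WT values. Neither transporter passed the test in any comparison. With 3 libraries against 3, the 2-sided exact permutation test cannot give a p below 0.10, which is what each transporter gave between genotypes under IL-33, and limma gave an adjusted p of 1 for both.

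Hexokinases trap glucose by phosphorylation. *Hk1* held 42.2% to 94.9% of hexokinase FPKM under PBS and 76.1% to 93.4% under IL-33, *Hk2* most of the rest, and *Hk3* was listed at 0 in 9 of 12 libraries. *Gpi1*, the isomerase that follows, ranged from 60.6 to 170.7 FPKM under PBS and from 118.9 to 155.0 under IL-33. *Hk3* was untested, and none of the others passed the limma test.

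Phosphofructokinase catalyses the committed step. Its platelet-type isozyme *Pfkp* was 46.1, 23.0 and 38.98 FPKM in WT PBS and 21.3, 31.8 and 39.8 in *Sema6d*-/- PBS libraries. The IL-33 values were 62.4, 49.3 and 66.04 FPKM in WT and 55.5, 57.8 and 43.4 in *Sema6d*-/- ILC2s. All IL-33 values exceeded the PBS values of the same genotype, but WT PBS replicate 1 lay above the lowest *Sema6d*-/- IL-33 value. Its limma log2 fold change averaged over genotypes was 0.76 (standard error 0.22, adjusted p = 0.0583), short of the threshold. Leaving out WT PBS replicate 1 gave an adjusted p of 0.0399 and leaving out *Sema6d*-/- PBS replicate 3 gave 0.0393, within a range of 0.0393 to 0.139 over all limma alternatives. *Pfkp* made up 43.8% to 78.6% of phosphofructokinase FPKM under PBS and 66.05% to 78.4% under IL-33, with *Pfkl* and *Pfkm* sharing the rest. *Pfkfb3*, which makes the activator of phosphofructokinase, ranged from 0.504 to 9.30 FPKM under PBS and from 2.095 to 3.42 under IL-33. *Pfkfb4*, its paralog, was untested. It was 0, 0 and 0.0388 FPKM in WT IL-33 and 0.450, 1.84 and 1.25 in *Sema6d*-/- IL-33 libraries, which do not overlap, and 1.76 FPKM in *Sema6d*-/- PBS replicate 2 but 0 in the other 5 PBS libraries.

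Aldolase splits the sugar phosphate. *Aldoa*, the main isozyme, was 1028, 864 and 1040 FPKM in WT PBS and 918, 698 and 709 in *Sema6d*-/- PBS libraries. After IL-33 it measured 719, 724 and 722 FPKM in WT and 643, 720 and 715 in *Sema6d*-/- ILC2s. The WT PBS libraries were the highest group, above every IL-33 value, while *Sema6d*-/- PBS overlapped IL-33. Averaged over genotypes its log2 fold change was −0.29 (standard error 0.09, limma adjusted p = 0.0720), and in WT −0.43 (standard error 0.13, limma adjusted p = 0.0900), neither past the threshold. Without WT PBS replicate 2 the averaged limma adjusted p was 0.0390 (0.0390 to 0.350 over alternatives), and without *Sema6d*-/- PBS replicate 1 that in WT was 0.0369 (0.0369 to 0.409). The annotation gives the symbol *Aldoa* to 2 adjoining genes on chromosome 7, 126795234 to 126800751 and 126800790 to 126809108.

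*Aldoc*, the brain-type aldolase, had a listed value of 0 in every PBS library. With IL-33 it was 4.12, 1.53 and 5.44 FPKM in WT and 1.59, 0.205 and 0.281 in *Sema6d*-/- ILC2s. All IL-33 values were above 0 but low, at most 0.748% of aldolase FPKM, and the genotypes overlapped narrowly, *Sema6d*-/- replicate 1 exceeding WT replicate 2. Against PBS no fold is given, since *Aldoc* passed the filter only through the IL-33 libraries. Its limma p-values against PBS also rest on a spread lowered by listed zeros and carry no weight as support. Averaged over genotypes, limma gave an adjusted p of 0.0181, which was 0.126 with quantile normalization and 0.118 with array weights (0.00356 to 0.126 over alternatives). In WT the limma adjusted p was 0.0209, and it was 0.0517 without WT PBS replicate 1, 0.0895 without WT IL-33 replicate 1 and 0.0950 without WT IL-33 replicate 3. It was 0.0807 with quantile normalization, 0.152 with array weights and 0.0725 with only the groups compared (0.00913 to 0.152 over alternatives). In *Sema6d*-/- ILC2s it was 0.534. *Tpi1*, which interconverts the aldolase products, lay between 44.8 and 99.2 FPKM under PBS and between 59.2 and 94.6 under IL-33.

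**Figure D3:**
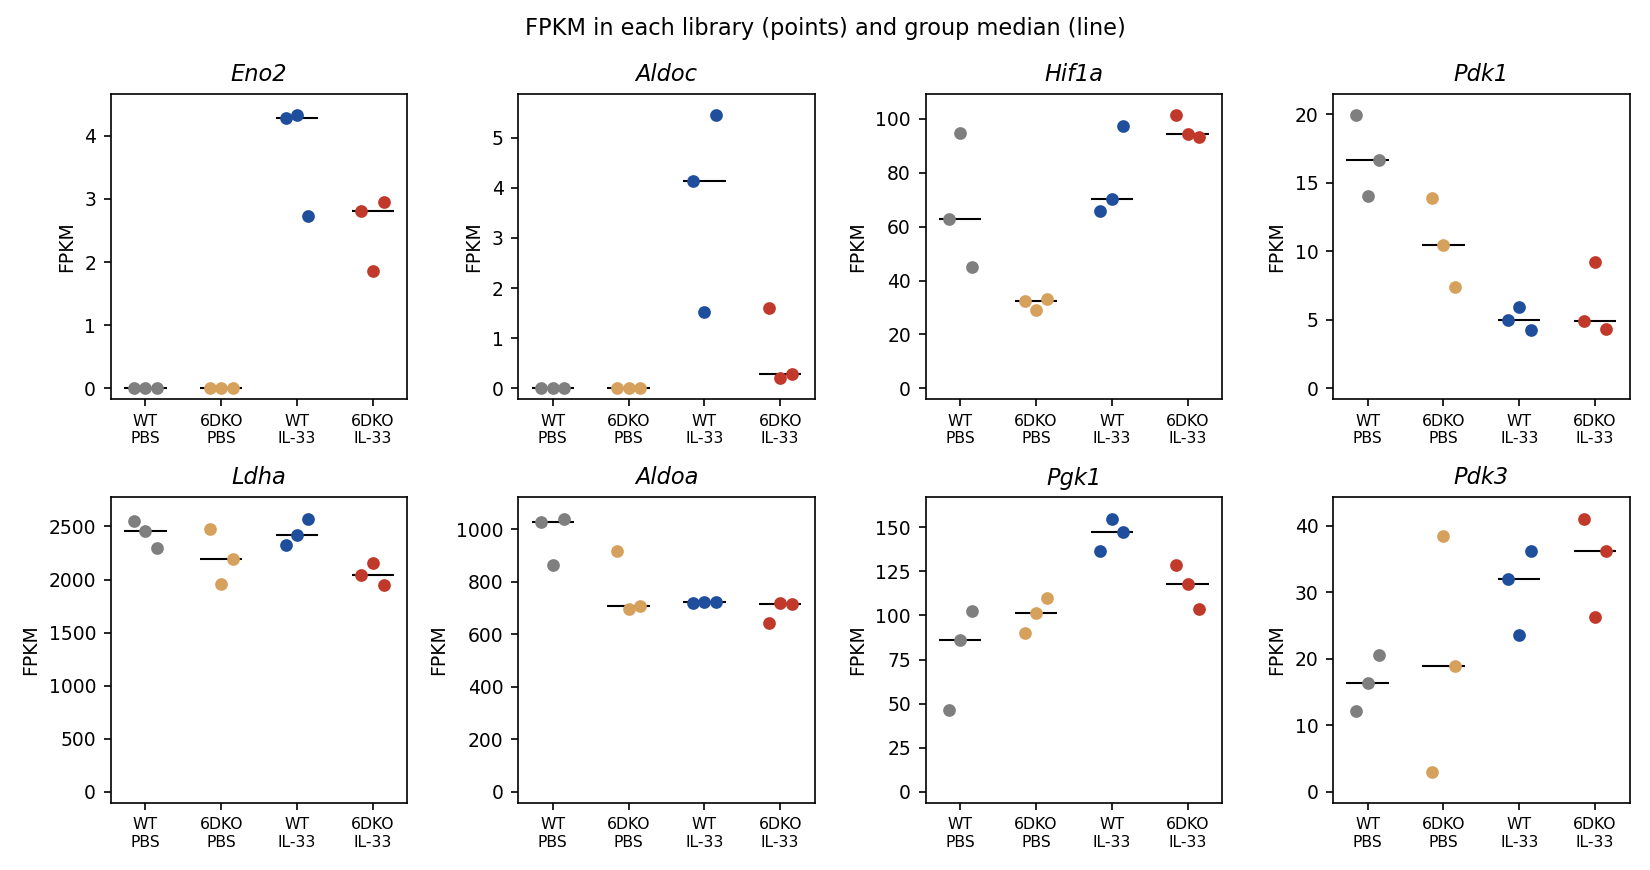
FPKM (vertical, from 0) of 8 genes in each library (points) by group (horizontal), with the group median as a line. *Eno2* and *Aldoc* are at 0 in the 6 PBS libraries, *Hif1a* is lowest in *Sema6d*-/- PBS (29.2 to 33.2 FPKM), *Pdk1* is highest in WT PBS (14.1 to 19.9 FPKM), and *Ldha* overlaps between PBS and IL-33.

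The energy-yielding steps open with *Gapdh*. It was 565, 644 and 584 FPKM in WT PBS and 568, 575 and 536 in *Sema6d*-/- PBS libraries. IL-33 libraries held 651, 590 and 672 FPKM in WT and 579, 538 and 550 in *Sema6d*-/- ILC2s. Treatments overlapped, and under IL-33 all WT values were above all *Sema6d*-/- values (log2 fold change −0.20, standard error 0.11, limma adjusted p = 1). *Pgk1*, the kinase that forms the first ATP of the pathway, was 46.6, 86.04 and 102.6 FPKM in WT PBS and 89.9, 101.4 and 109.8 in *Sema6d*-/- PBS libraries. The IL-33 values were 136.6, 154.8 and 147.1 FPKM in WT and 128.5, 117.7 and 103.9 in *Sema6d*-/- ILC2s. WT IL-33 libraries were the highest and did not overlap WT PBS, whereas the *Sema6d*-/- treatments overlapped. The log2 fold change was 0.59 averaged over genotypes (standard error 0.18, limma adjusted p = 0.0698) and 0.96 in WT (standard error 0.26, limma adjusted p = 0.0614). Without WT PBS replicate 3 the limma adjusted p was 0.0262 averaged over genotypes (0.0262 to 0.162 over alternatives) and 0.0246 in WT (0.0246 to 0.194).

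*Pgam1*, the mutase that follows, was 36.5, 71.4 and 58.3 FPKM in WT PBS and 28.8, 112.3 and 53.4 in *Sema6d*-/- PBS libraries. After IL-33 it measured 97.9, 93.4 and 105.5 FPKM in WT and 111.7, 88.95 and 95.9 in *Sema6d*-/- ILC2s. The only PBS value not below all IL-33 values, and the highest of the 12, came from *Sema6d*-/- PBS replicate 2, the library with markers of other cells. With it the log2 fold change averaged over genotypes was 0.84 (standard error 0.29, limma adjusted p = 0.0948), and without it 1.09 (limma adjusted p = 0.0102; 0.0102 to 0.197 over alternatives).

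Enolase forms phosphoenolpyruvate. *Eno1*, its ubiquitous isozyme, was 293, 232 and 292 FPKM in WT PBS and 361, 325 and 326 in *Sema6d*-/- PBS libraries. With IL-33 it was 295, 316 and 293 FPKM in WT and 303, 300.2 and 257 in *Sema6d*-/- ILC2s. IL-33 values lay above PBS in WT and below it in *Sema6d*-/- ILC2s, without overlap in either, although in WT by as little as 293.1 against 293.2 FPKM. The interaction had a log2 value of −0.39 (standard error 0.20, limma adjusted p = 0.897). *Eno1* is uncertain, since *Eno1b*, a near-identical copy measured at 34.95 to 87.3 FPKM, could share its reads. *Eno2*, the neuronal isozyme, had only listed zeros in the PBS groups. IL-33 libraries held 4.28, 4.32 and 2.74 FPKM in WT and 2.80, 1.85 and 2.95 in *Sema6d*-/- ILC2s. All 6 IL-33 values were above 0, overlapped between genotypes and made up 0.608% to 1.40% of enolase FPKM. No fold is given against PBS, since *Eno2* passed the filter only through the IL-33 libraries. Its limma p-values against PBS also rest on a spread lowered by listed zeros, with a standard deviation of 0 in both PBS groups. They therefore carry no weight as support. The limma adjusted p was 0.000574 averaged over genotypes (0.000103 to 0.00625 over alternatives) and 0.00613 in WT (0.00137 to 0.0404). In *Sema6d*-/- ILC2s it was 0.0244, and it was 0.104, 0.0682 and 0.110 without *Sema6d*-/- IL-33 replicates 1, 2 and 3 in turn. It was also above the threshold with quantile normalization (0.177), a block for replicate number (0.0619), array weights (0.0819) and only the groups compared (0.0877), within 0.00570 to 0.177 over alternatives. *Eno3*, the muscle isozyme, ranged from 0 to 15.5 FPKM under PBS and from 1.75 to 7.21 under IL-33.

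*Pkm*, the pyruvate kinase gene, was 483, 372 and 471 FPKM in WT PBS and 337, 380.0 and 342 in *Sema6d*-/- PBS libraries. The IL-33 values were 400, 354 and 408 FPKM in WT and 373, 366 and 355 in *Sema6d*-/- ILC2s. The groups overlapped in every comparison, and no limma test passed the threshold.

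*Ldha*, which reduces pyruvate to lactate, was the most abundant gene of the list. It was 2554, 2460 and 2298 FPKM in WT PBS and 2477, 1954 and 2190 in *Sema6d*-/- PBS libraries. After IL-33 it measured 2328, 2419 and 2572 FPKM in WT and 2042, 2159 and 1952 in *Sema6d*-/- ILC2s. Treatments overlapped fully, and the averaged log2 fold change was −0.05 (standard error 0.07, limma adjusted p = 0.731). Under IL-33 all *Sema6d*-/- values were below all WT values (log2 fold change −0.25, standard error 0.10, exact permutation p = 0.10, limma adjusted p = 1, and 0.123 to 1 over alternatives). *Ldha* held 96.2% to 100% of lactate dehydrogenase FPKM. *Ldhb*, the heart-type subunit, varied from 0 to 102.0 FPKM within WT PBS alone. *Slc16a1*, a lactate transporter, was 0, 0 and 3.46 FPKM in WT PBS and 2.54, 0.0337 and 8.03 in *Sema6d*-/- PBS libraries. With IL-33 it was 2.58, 7.47 and 8.89 FPKM in WT and 4.40, 7.24 and 5.45 in *Sema6d*-/- ILC2s. The highest PBS value lay within the IL-33 range, and its log2 fold change was 1.53 (limma adjusted p = 0.140, standard error 0.59). The other lactate transporter, *Slc16a3*, ranged from 0 to 6.11 FPKM under PBS and from 2.62 to 5.16 under IL-33.

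Of the PDH kinases, which act at the entry to mitochondria, only *Pdk1* passed the averaged limma comparison with all libraries. *Pdk1* was 19.9, 14.1 and 16.7 FPKM in WT PBS and 13.9, 10.4 and 7.43 in *Sema6d*-/- PBS libraries. IL-33 libraries held 4.96, 5.96 and 4.27 FPKM in WT and 4.94, 9.26 and 4.34 in *Sema6d*-/- ILC2s. WT PBS libraries were the highest and did not overlap any IL-33 library, and *Sema6d*-/- PBS replicate 3 lay below *Sema6d*-/- IL-33 replicate 2. *Pdk1* fell, its averaged log2 fold change being −1.14 (standard error 0.30, limma adjusted p = 0.0342), or −1.30 relative to the median of all genes. The call was lost without WT PBS replicate 1 (limma adjusted p = 0.0555), without WT IL-33 replicates 1, 2 and 3 in turn (0.0788, 0.0667 and 0.0913) and without *Sema6d*-/- IL-33 replicates 1 and 3 (0.0933 and 0.0950). It was also lost with array weights (0.0845) and with the replicate number as a block (0.0558), within a range of 0.0172 to 0.0950 over alternatives. In WT alone its log2 fold change was −1.56 (standard error 0.42, limma adjusted p = 0.0609), and this passed without *Sema6d*-/- PBS replicate 1 (0.0393), without *Sema6d*-/- PBS replicate 3 (0.0499) and without the trend in eBayes (0.0336), the range over alternatives being 0.0336 to 0.211. In *Sema6d*-/- ILC2s its log2 fold change was −0.71 (standard error 0.42, limma adjusted p = 0.466).

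*Pdk3*, a kinase of the same family, was 12.1, 16.4 and 20.6 FPKM in WT PBS and 2.92, 38.5 and 18.9 in *Sema6d*-/- PBS libraries. The IL-33 values were 32, 23.6 and 36.2 FPKM in WT and 41.02, 26.3 and 36.1 in *Sema6d*-/- ILC2s. The only PBS value inside the IL-33 range came from *Sema6d*-/- PBS replicate 2. With that library the log2 fold change was 1.07 (standard error 0.46, limma adjusted p = 0.193), and without it 1.43 (limma adjusted p = 0.0418, and 0.0418 to 0.337 over alternatives). In its absence 6 of the 30 genes passed the averaged comparison, among them *Eno2* and *Aldoc*, whose calls carry no weight. Over all genes, leaving out each library in turn gave 653 to 1186 calls. *Pdk2* ranged from 1.85 to 28.04 FPKM under PBS and from 2.93 to 10.8 under IL-33. As shares of the summed kinase FPKM, *Pdk1* made up 19.7% to 58.9% under PBS and 8.34% to 23.6% under IL-33. *Pdk3* made up 6.499% to 72.6% under PBS and 67.0% to 83.3% under IL-33, so for each kinase the ranges overlapped. For *Pdk3* the overlap came from *Sema6d*-/- PBS replicate 2 alone, the other PBS libraries reaching at most 50.9%.

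Subunits of the PDH complex did not pass the test in any comparison. *Pdhb*, a subunit of its first enzyme, was 151.8, 58.1 and 165.9 FPKM in WT PBS and 118.5, 210.1 and 131.2 in *Sema6d*-/- PBS libraries. After IL-33 it measured 132.4, 137.4 and 166.3 FPKM in WT and 178.7, 179.2 and 139.5 in *Sema6d*-/- ILC2s. The extremes were both PBS libraries, and the treatments overlapped. *Pdha1*, the partner subunit, ranged from 51.3 to 107.6 FPKM under PBS and from 72.2 to 122.0 under IL-33. *Dlat*, the acetyltransferase core, ranged from 13.3 to 19.6 FPKM under PBS and from 7.06 to 14.3 under IL-33 (log2 fold change −0.67, standard error 0.24, limma adjusted p = 0.111), with no overlap within either genotype.

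*Hif1a*, the oxygen-regulated subunit of HIF-1, was 62.8, 94.7 and 44.9 FPKM in WT PBS and 32.4, 29.2 and 33.2 in *Sema6d*-/- PBS libraries. With IL-33 it was 65.7, 70.2 and 97.4 FPKM in WT and 101.3, 94.5 and 93.4 in *Sema6d*-/- ILC2s. The *Sema6d*-/- PBS libraries were the lowest group and overlapped no other, while WT PBS and WT IL-33 overlapped. Averaged over genotypes *Hif1a* rose, with 0.91 as its log2 fold change (standard error 0.19, limma adjusted p = 0.0117), or 0.75 relative to the median of all genes, and the adjusted p stayed between 0.00279 and 0.0387 over alternatives, although a required log2 fold change of at least 1 removed the call. In *Sema6d*-/- ILC2s the log2 fold change was 1.58 (standard error 0.27, limma adjusted p = 0.0100), and without *Sema6d*-/- IL-33 replicate 1 the adjusted p was 0.0531 (0.00423 to 0.0531 over alternatives). In WT it was 0.25 (standard error 0.27, limma adjusted p = 0.711). The difference between these effects, tested as the interaction, was 1.33 (standard error 0.38), and its limma adjusted p was 0.676 (0.140 to 0.998 over alternatives), so the genotypes are not shown to differ in it.

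Within each genotype, 2 of the 30 genes passed the limma test for IL-33 against PBS. In WT they were *Eno2* and *Aldoc*, beside 4.27% of all genes, so 2 higher, beside 2.66%, and 0 lower, beside 1.61%. Without genes that passed the filter through the libraries of 1 treatment alone, 0 of 28 passed in WT, beside 3.71%. In *Sema6d*-/- ILC2s they were *Hif1a* and *Eno2*, beside 2.84% of all genes, so 2 higher, beside 1.75%, and 0 lower, beside 1.1%. Without such genes, 1 of 28 passed there, *Hif1a*, beside 2.25%. At an unadjusted limma p under 0.05 there were 8 in WT, beside 17.6% of all genes, and 3 in *Sema6d*-/- ILC2s, beside 15.2%, or 6 and 2 of 28 without such genes, beside 16.5% and 13.6%. Treatments did not overlap for 11 of 30 genes in WT, beside 25.1% of all genes, with 8 higher, beside 15.9%, and 3 lower, beside 9.23%. Without *Eno2* and *Aldoc* it was 9 of 28, beside 24.5%. They did not overlap for 7 of 30 in *Sema6d*-/- ILC2s, beside 22.7%, with 4 higher, beside 13.9%, and 3 lower, beside 8.75%, or 5 of 28 without those genes, beside 21.9%. The median log2 fold change was 0.25 in WT, and 0.20 without *Eno2* and *Aldoc*, against 0.16 over all genes. In *Sema6d*-/- ILC2s it was 0.10, and 0.05 without them, against 0.14 over all genes.

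To ask what loss of *Sema6d* changes, genotypes were compared under each treatment. Under IL-33 none of the 30 genes passed (0 of 30 by limma, beside 0.00878% of all genes), and 2 had an unadjusted p under 0.05, *Aldoc* and *Ldha*, beside 1.83% of all genes. The 1 gene called among all genes became 55 with array weights and 17 with only the groups compared, and the 30 genes stayed at 0 in both. The fit shares its spread with the PBS libraries, where the median standard deviation of all genes on the log2 scale was 0.657 in WT and 0.705 in *Sema6d*-/- ILC2s, against 0.292 and 0.282 under IL-33. For *Aldoc* the reverse holds, with 0 in both PBS groups, against 0.703 in WT and 0.614 in *Sema6d*-/- ILC2s under IL-33. Its unadjusted limma p here and in the interaction thus rests on a spread lowered by listed zeros. Under IL-33 its genotypes overlapped (exact permutation p = 0.2). Without overlap between genotypes, 2 were higher in *Sema6d*-/- ILC2s (*Slc2a1* and *Slc2a3*), beside 6.88%, and 5 were lower (*Gapdh*, *Pgk1*, *Ldha*, *Ldhb* and *Pdk2*), beside 7.35%, so 7 of 30, beside 14.2% of all genes. For *Ldhb* the gap was as little as 31.57 FPKM in WT against 31.56 in *Sema6d*-/- ILC2s. Some marker sums under IL-33 did not overlap between genotypes either. Macrophage markers summed to 0.815 to 3.96 FPKM in WT and 10.3 to 59.97 in *Sema6d*-/- libraries. Proliferation genes summed to 172.2 to 236.5 and 151.3 to 171.1 FPKM, and ILC2 markers to 1996 to 2287 and 2356 to 2474, in the same order. The other marker sums overlapped, and the part of these sums in the genotype results was not tested. Under PBS none of the 30 genes passed either (0 of 30 by limma, beside 0.579% of all genes, 0.333% higher and 0.246% lower), though *Eno2* and *Aldoc*, at 0 in every PBS library, could not, which leaves 0 of 28. The 66 genes called among all genes became 15 with the replicate block, 1 with array weights and 1 with only the groups compared. Of the 28, 4 had an unadjusted p under 0.05, namely *Hif1a*, *Aldoa*, *Pkm* and *Eno1*, beside 12.9% of all genes. *Hif1a* was lower in *Sema6d*-/- ILC2s under PBS by −1.01 on the log2 scale (standard error 0.27, limma adjusted p = 0.179). Without WT PBS replicate 3 the limma adjusted p was 0.0384 (0.0384 to 0.910 over alternatives). Under PBS 3 of the 28 did not overlap (*Eno1* higher, beside 4.42%, and *Pdk1* and *Hif1a* lower, beside 4.2%), beside 8.63% of all genes. The interaction was passed by none (0 of 30 by limma, beside 0.0176% of all genes), with 2 at an unadjusted p under 0.05, *Hif1a* and *Aldoc*, beside 5.57% of all genes. The median log2 fold change of the 30 genes was −0.07 under IL-33 against 0.01 over all genes, and −0.04 under PBS, or −0.09 without *Eno2* and *Aldoc*, against 0.00 over all genes. With each library left out in turn, the median of the 30 genes ranged from −0.094 to 0.007 under IL-33. Under PBS it ranged from −0.089 to 0.048, so neither sign was stable.

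Other genes of these pathways were taken from lists by the same averaged comparison of IL-33 with PBS, in which 5.75% of all genes were called higher and 3.07% lower. Of 13 tested genes of glucose transport and glycolysis beyond the 32, 1 was called higher, beside 5.75% of all genes, and 0 lower, beside 3.07%. This was *Slc2a6*, a glucose transporter family member, at 0, 1.79 and 0.313 FPKM in WT PBS, 0.0823, 0 and 0 in *Sema6d*-/- PBS, 4.46, 5.10 and 7.06 in WT IL-33, and 10.5, 4.39 and 2.23 in *Sema6d*-/- IL-33 libraries, with no overlap between treatments. *Slc2a6* averaged 0.365 FPKM under PBS, so it passed the filter only through the IL-33 libraries, and no fold is given. Its call carries no weight in this count, and without it no call is left in this list. Among genes that averaged 0.5 FPKM or more in both treatments, 4.33% were called higher. *Gapdhs*, which was not called, passed only through the PBS libraries. The call of *Slc2a6* was lost with quantile normalization (limma adjusted p = 0.0508). Of 13 tested genes of pyruvate transport and use and 14 regulators of HIF or glycolysis, 0 passed the limma test in either direction, with 1 (*Ldhd*, which passed the filter only through the PBS libraries) and 4 at an unadjusted p under 0.05, beside 22.7% of all genes.

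Of 17 further known HIF targets, 4 were called higher, beside 5.75% of all genes, and 0 lower, beside 3.07%. *Ankrd37*, at a mean of 0.307 FPKM under PBS, passed the filter only through the IL-33 libraries, so its call carries no weight in this count. *Car9*, which was not called, also passed only through them. The other called genes were *Ndrg1* (log2 fold change 2.74, limma adjusted p = 0.0237), *Mxi1* (0.85, 0.0190) and *Ero1l* (0.51, 0.0481). They stand beside 4.33% called higher among genes that averaged 0.5 FPKM or more in both treatments. *Mxi1*, a MYC antagonist, was 14.05, 12.1 and 11.2 FPKM in WT PBS, 16.7, 15.2 and 18.6 in *Sema6d*-/- PBS, 25.6, 29.9 and 27.9 in WT IL-33, and 21.7, 28.9 and 27.5 in *Sema6d*-/- IL-33 libraries, without overlap between treatments. The others overlapped: *Ankrd37* was listed at 0 in 5 PBS libraries, *Ndrg1* in 3. The PBS value of *Ankrd37* above 0, at 1.84 FPKM, came from *Sema6d*-/- PBS replicate 2, and without that library its treatments did not overlap, the IL-33 values starting at 0.958 FPKM. Each call was lost when some libraries were left out. The limma adjusted p of *Mxi1* was 0.0622 and 0.0563 without WT IL-33 replicates 2 and 3, and 0.0635 and 0.0587 without *Sema6d*-/- IL-33 replicates 2 and 3 (0.00598 to 0.0635 over alternatives). That of *Ndrg1* was 0.0662 and 0.0620 without WT IL-33 replicates 2 and 3, and 0.0540, 0.0560 and 0.0611 without *Sema6d*-/- IL-33 replicates 1, 2 and 3 (0.00192 to 0.0662 over alternatives). That of *Ankrd37* was 0.0578 and 0.0609 without WT IL-33 replicates 1 and 3, and 0.0706 and 0.0541 without *Sema6d*-/- IL-33 replicates 2 and 3. With quantile normalization it was 0.101 and with array weights 0.126 (0.0112 to 0.126 over alternatives). *Ero1l*, an oxidase of the endoplasmic reticulum, lost its call in 14 of 21 alternatives (0.0196 to 0.164). For it, leaving out a library gave a limma adjusted p of 0.0888 and 0.0632 (WT PBS 1 and 2), 0.0654 and 0.0828 (*Sema6d*-/- PBS 1 and 3), 0.109 and 0.118 (WT IL-33 2 and 3) and 0.0667, 0.107 and 0.119 (*Sema6d*-/- IL-33 1, 2 and 3).

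Of 11 genes of the pentose phosphate pathway, which branches off glycolysis, 1 rose, beside 5.75% of all genes, and 0 fell, beside 3.07%. *G6pdx*, the enzyme of its first step, was 10.2, 12.3 and 15.1 FPKM in WT PBS, 9.83, 28.05 and 17.4 in *Sema6d*-/- PBS, 33.6, 34.2 and 27.3 in WT IL-33, and 27.3, 40.2 and 30.9 in *Sema6d*-/- IL-33 libraries. Only *Sema6d*-/- PBS replicate 2 reached the IL-33 range. The log2 fold change was 1.09 (standard error 0.26, limma adjusted p = 0.0237), and the adjusted p was 0.0644 and 0.0668 without WT IL-33 replicates 1 and 2, and 0.0749 and 0.0567 without *Sema6d*-/- IL-33 replicates 2 and 3 (0.00731 to 0.0749 over alternatives).

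Of 17 genes of the tricarboxylic acid cycle, which takes up acetyl-CoA from PDH, 3 rose, beside 5.75% of all genes, and 0 fell, beside 3.07%. All 3 lacked overlap between treatments, as did 4.12% of all genes in the higher direction. *Sdhb*, a subunit of succinate dehydrogenase, was 242.4, 167.4 and 263.5 FPKM in WT PBS, 268.2, 241.1 and 241.3 in *Sema6d*-/- PBS, 401.1, 316.8 and 385.6 in WT IL-33, and 336.2, 314.0 and 427.0 in *Sema6d*-/- IL-33 libraries. Every IL-33 library was above every PBS library, the log2 fold change being 0.62 (standard error 0.14, limma adjusted p = 0.0146). No library left out took this call away, but eBayes without trend did (0.0823), and so did array weights (0.0505; 0.00996 to 0.0823 over alternatives). A required log2 fold change of at least 1 removed the calls of *Sdhb*, *Cs*, *Idh3a*, *Mxi1* and *Ero1l*, whose folds are smaller. *Cs*, citrate synthase, ranged from 34.2 to 67.4 FPKM under PBS and from 72.4 to 114.6 under IL-33 (log2 fold change 0.81, limma adjusted p = 0.0181). Its adjusted p was 0.0572 without WT IL-33 replicate 3 and 0.0560 without *Sema6d*-/- IL-33 replicate 2 (0.00551 to 0.0572 over alternatives). *Idh3a*, a subunit of isocitrate dehydrogenase, ranged from 20.95 to 55.5 FPKM under PBS and from 59.6 to 82.3 under IL-33 (log2 fold change 0.82, limma adjusted p = 0.0420). Its adjusted p was 0.0599, 0.0680 and 0.0516 without WT PBS replicates 1, 2 and 3, 0.0608, 0.109 and 0.0989 without WT IL-33 replicates 1, 2 and 3, and 0.0691, 0.101 and 0.0996 without *Sema6d*-/- IL-33 replicates 1, 2 and 3. With eBayes without trend it was 0.0765 and with array weights 0.0660 (0.0132 to 0.109 over alternatives).

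Promoters were read for the letters that HIF-1 binds. Windows of 250 bases before each start, from RefSeq on GRCm38.p6, matched 31 of the 32 genes in 45 windows. ACGTG or GCGTG, the core of the hypoxia response element, was sought on both strands; the E-box CACGTG contains ACGTG on either strand and counts on each. At least 1 match stood in 35 of 45 windows of these genes (77.8%), in 56.6% of 10928 windows of the genes tested and in 38.6% of all 32851 windows. An E-box stood in 6 of the 45 windows (13.3%), in 8.48% of windows of the genes tested and in 6.02% of all windows. The *Eno2* window held 0 matches and each *Aldoc* window 1. Shown are windows free of annotated exons for *Pdk1* (chr2:71872974-71873223, plus strand, 1 match), *Hif1a* (chr12:73907617-73907866, plus strand, 3 matches) and *Ldha* (chr7:46845554-46845803, plus strand, 5 matches), the last as the most abundant gene. *Pdk1* has another window, with 0 matches, which overlaps an annotated exon, and *Ldha* another without exons, with 1 match (chr7:46846832-46847081). Some windows of the same gene overlap, as for *Eno1*, and each was counted. The bases after the starts of the shown *Hif1a* and *Ldha* windows were not found in GENCODE vM21 transcripts of these genes. Those of the shown *Pdk1* window and of the other *Ldha* window were found. The windows with more matches are shown, written 5′ to 3′ with matches on either strand in capitals.
Pdk1: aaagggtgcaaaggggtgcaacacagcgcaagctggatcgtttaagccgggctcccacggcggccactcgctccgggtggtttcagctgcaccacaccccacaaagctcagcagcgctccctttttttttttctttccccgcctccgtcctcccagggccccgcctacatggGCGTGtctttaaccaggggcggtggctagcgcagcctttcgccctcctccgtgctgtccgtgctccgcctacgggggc
Hif1a: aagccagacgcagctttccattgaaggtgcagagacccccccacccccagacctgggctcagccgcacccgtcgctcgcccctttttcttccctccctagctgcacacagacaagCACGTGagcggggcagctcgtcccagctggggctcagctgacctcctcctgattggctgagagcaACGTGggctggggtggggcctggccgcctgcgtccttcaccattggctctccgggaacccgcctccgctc
Ldha: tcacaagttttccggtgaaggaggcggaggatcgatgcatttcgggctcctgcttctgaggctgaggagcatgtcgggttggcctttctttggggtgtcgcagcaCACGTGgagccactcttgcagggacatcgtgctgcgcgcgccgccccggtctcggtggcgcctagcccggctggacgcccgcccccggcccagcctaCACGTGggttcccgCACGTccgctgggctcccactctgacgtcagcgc
A match describes the letters only, and no binding was measured here.

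By the GENCODE vM21 annotation of GRCm38, *Eno2* lies on chromosome 6 (124760053 to 124769673, minus strand), *Aldoc* on chromosome 11 (78322968 to 78327781, plus strand), *Hif1a* on chromosome 12 (73901375 to 73947530, plus strand) and *Pdk1* on chromosome 2 (71873224 to 71903858, plus strand). Exons of 7 of the 32 genes overlap exons of another measured gene on the opposite strand (*Hk1*, *Hk3*, *Pfkm*, *Pfkp*, *Tpi1*, *Gapdh* and *Pdha1*), and these are uncertain if reads were counted without regard to strand.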

How the data were processed

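The authors deposited a table of FPKM values for 24346 gene symbols in 12 libraries, and these values were used as deposited, with no columns left out. The labels name SMART-Seq HT and Nextera kits, and TopHat2 2.1.1, Bowtie2 and Cuffdiff 2.2.1 with mm10; the methods of the study name TruSeq Stranded, another TopHat version and Cuffnorm. The annotation is not given in the sources used here, and whether reads were counted by strand is not stated.

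The 11395 genes that averaged 0.5 FPKM or more were tested on log2(FPKM + 1) with a group-means model in limma 3.58.1 (R 4.3.3), eBayes with trend, 8 residual degrees of freedom and 6 contrasts. Contrasts were IL-33 against PBS averaged and within each genotype, genotype within each treatment, and the interaction. Calls used a Benjamini-Hochberg adjusted p under 0.05 over all genes tested in a contrast. Counts were also taken, from the same fit, over the 10261 genes that averaged at least 0.5 FPKM in both treatments. Exact permutation tests compared 3 libraries with 3. Other steps used Python 3.11.15, numpy 2.4.6, pandas 2.3.3 and matplotlib 3.10.9.

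Members and lists were chosen with earlier results of these data known. Named genes are members, called genes of the related pathway lists, markers and the targeted gene. Code was tested on simulated data. No 2 libraries were identical (0 of 66). Relative depth was estimated from weakly expressed genes. Gene positions are from GENCODE vM21 and promoter sequences from RefSeq. Alternatives tried were other filters, pseudocounts, median-ratio scaling, quantile normalization, array weights, eBayes without trend, a replicate block, only the groups compared, a minimum fold, and leaving out each library.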

Additional observations from a re-analysis of the deposited data

Results flagged for a closer look

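For *Eno1*, WT PBS libraries held 293.1, 232.1 and 291.8 FPKM, *Sema6d*-/- PBS libraries 361.3, 325.2 and 326.2, WT IL-33 libraries 295.2, 316.3 and 293.2, and *Sema6d*-/- IL-33 libraries 303, 300.2 and 257.1. The difference between the effects of IL-33 in the genotypes was estimated at −0.3907 on the log2 scale (standard error 0.1986, limma adjusted p = 0.897), so the genotypes are not shown to differ in it. *Eno1* is uncertain through its near-identical copy *Eno1b*.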

How the results depend on the processing

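For IL-33 against PBS averaged over genotypes, 4 members and 1005 genes were called. A mean of at least 2 FPKM gave 2 members and 854 genes, and array weights gave 2 and 869. With a required absolute log2 fold change of at least 1, 3 members and 731 genes were called, *Hif1a* (0.913) being lost by construction. Those 3 are *Eno2*, *Aldoc* and *Pdk1*, and the calls of *Eno2* and *Aldoc* carry no weight. The higher filter removes *Eno2* and *Aldoc* by construction. Array weights were 0.244 to 0.606 for PBS and 1.93 to 3.24 for IL-33 libraries, and the cause of the lost calls was not tested. Leaving out each library gave 3 to 6 members, 653 to 1186 genes (1005 with all) and a member median of 0.117 to 0.389 (0.289 with all).

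In WT 2 members were called, and 0 with a mean of at least 2 FPKM, 1 with quantile normalization, 1 with array weights and 1 with only the groups compared. Leaving out each library gave 1 to 4 members, 194 to 693 genes (486 with all) and a median of 0.077 to 0.404 (0.254 with all). In *Sema6d*-/- ILC2s 2 members and 324 genes were called. There was 1 member with 276 genes at a mean of at least 2 FPKM, and 1 with 270 genes under quantile normalization. Array weights gave 1 and 224, the replicate block 1 and 218, and only the groups compared 1 and 145. Leaving out each library gave 0 to 2 members, 115 to 437 genes and a median of 0.062 to 0.191 (0.0997 with all). Only the groups compared means fewer samples, hence fewer degrees of freedom; otherwise the cause was not tested.

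Between genotypes under IL-33, 1 gene was called, and 2 with a pseudocount of 0.1, 0 with quantile normalization, 55 with array weights, 17 with only the groups compared and 0 with an absolute log2 fold change of at least 1. Leaving out each library gave 0 members, 0 to 3 genes and a median of −0.094 to 0.007 (−0.068 with all). Under PBS 66 genes were called, and 33 without a filter, 36 with quantile normalization, 1 with array weights, 15 with the replicate block and 1 with only the groups compared. Leaving out each library gave 0 to 1 members, 21 to 203 genes and a median of −0.089 to 0.048 (−0.039 with all). For the interaction 2 genes were called, and 5 with a pseudocount of 0.1, 7 with eBayes without trend and 1 with the replicate block. Leaving out each library gave 0 members, 0 to 25 genes and a median of −0.289 to −0.003 (−0.102 with all). The cause was not tested.

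Libraries with the same replicate number were no more alike than others: correlations of residuals were −0.047 to 0.045 over 18 such pairs and −0.073 to 0.053 over 36 others. With the replicate number as a block, the averaged comparison called 3 members and 812 genes, WT 2 and 361, and *Sema6d*-/- 1 and 218.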
